A study of Mus musculus with 6 samples.

Results

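The collagen chains of mouse inguinal white adipose tissue are described here through the TPM (transcript abundance scaled by length and by the library's total) of every protein-coding gene whose symbol has the form of a collagen alpha chain, Col followed by a type number, the letter a and a chain number. This rule took 44 of the 57180 genes in the table. The tissue, a subcutaneous fat depot, came from male wild-type mice in 2 groups of 3 samples. The HFD samples came from mice on a high-fat diet, and the HEP samples came from mice on the same kind of diet with 0.5% hesperidin, a flavanone glycoside of citrus fruit, over 12 weeks. Every sample therefore carries the high-fat diet, and the series holds no samples from a control diet. The labels give no ages, and they do not say whether a sample is 1 animal or a pool, so the spread between samples may be partly technical.

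Collagens are secreted proteins whose chains wind into a triple helix. Glycine opens each triplet of residues in the helical part, since only its side chain is small enough for the helix core. Types I, III and V form the banded fibrils that give connective tissue its tensile strength, type IV builds the sheet of the basement membrane, and type VI forms beaded microfilaments that link both. In fat, each adipocyte sits in its own basement membrane, and fibroblasts and their progenitors lay down most of the fibrils around it. Matrix accumulates in fat of obese animals, and collagen VI is a main component of it there.

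The coding sequences show how the classes differ in this repeat, and 1 stretch is printed for each of 5 chains that the results turn on. They are spliced coding bases of the GENCODE M21 annotation on GRCm38, 5′ to 3′ on the sense strand, with glycine codons in capitals. The Col1a1 and Col3a1 stretches open the longest runs of triplets led by a glycine codon in these main fibrillar chains. They lie at chr11:94939451-94939939 (plus strand, 3 exons) and chr1:45323762-45325413 (plus strand, 2 exons). Where the helix itself starts was not determined. The Col6a1 and Col15a1 stretches open their longest such runs, at chr10:76719623-76720996 (minus strand, 2 exons) and chr4:47270324-47270947 (plus strand, 2 exons). The Col4a1 stretch, at chr8:11244507-11245084 (minus strand, 2 exons), holds the end of its longest run, where the spacing of the capitals breaks.
Col1a1: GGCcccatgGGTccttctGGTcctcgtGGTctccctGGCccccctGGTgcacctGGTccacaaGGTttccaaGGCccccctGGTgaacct
Col3a1: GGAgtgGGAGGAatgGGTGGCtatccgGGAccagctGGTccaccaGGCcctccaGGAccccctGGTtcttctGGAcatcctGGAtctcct
Col6a1: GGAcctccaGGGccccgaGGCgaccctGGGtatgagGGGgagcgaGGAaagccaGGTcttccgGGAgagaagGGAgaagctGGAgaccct
Col15a1: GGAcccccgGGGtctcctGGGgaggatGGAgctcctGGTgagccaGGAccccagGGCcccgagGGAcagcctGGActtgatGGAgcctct
Col4a1: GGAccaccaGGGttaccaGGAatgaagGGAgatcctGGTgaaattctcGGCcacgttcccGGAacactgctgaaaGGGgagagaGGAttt

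Each stretch holds 90 bases, with 10 glycine codons in Col1a1, Col6a1 and Col15a1, 12 in Col3a1 and 9 in Col4a1. Counted as unbroken triplets that start with a glycine codon, the longest run reached 338 triplets in Col1a1 and 344 in Col3a1, and it spanned 216 to 344 over the 11 fibril-forming chains. The 6 collagen IV chains had 22 to 27 runs of at least 5 triplets, the longest of which held 39 to 66. In collagen VI the longest run held 37 to 87 triplets. Col15a1 and Col18a1, the multiplexins, shared a longest run of only 30 triplets, in 11 and 14 runs. All 44 members had a coding sequence in this annotation.

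The libraries differed in a way that the diet groups do not account for. HFD 3, HEP 1 and HEP 3 held lymphocyte and lymph node transcripts that the other libraries nearly lacked. The summed TPM of 7 B cell markers was 502 to 1087 in these 3 libraries and 4.78 to 6.15 in HFD 1, HFD 2 and HEP 2. The same split held for 6 T cell markers, at 428 to 598 against 3.79 to 7.43, and for 5 lymph node stroma markers, at 916 to 1162 against 10.4 to 19.3, with Glycam1 listed at 0 in all of HFD 1, HFD 2 and HEP 2. HEP 2 also stood apart in 7 skeletal muscle markers, at 13247 TPM against 51.6 to 1507 in the others, and HFD 1 and HEP 2 in 6 liver markers, at 1667 and 2574 TPM against 11.9 to 107. The adipocyte label held, since 10 adipocyte markers summed to between 29619 and 51952 TPM. HFD 1, HFD 2 and HEP 2 are called lymphocyte-low below, and HFD 3, HEP 1 and HEP 3 lymphocyte-rich. Since the tissue was taken in bulk, fewer cells of a type and less RNA per cell cannot be told apart.

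Collagen RNA was abundant and spread over few chains. The summed TPM of the members was 3122, 3703 and 2014 in the HFD libraries, against 2017, 2672 and 1607 in the HEP libraries. The highest sum was in HFD 2 and the lowest in HEP 3, and the groups overlapped, since HEP 2 lay above HFD 3 and HEP 1 lay level with it. The group means were 2946 ± 858 TPM (SD, n = 3) for HFD and 2099 ± 537 TPM (SD, n = 3) for HEP, a log2 ratio of -0.49. That difference was smaller than the HFD standard deviation. Among the lymphocyte-low libraries alone the log2 ratio was -0.35, and among the lymphocyte-rich ones it was -0.15. Without HFD 2 it was -0.29, and without HEP 3 it was -0.33.

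**Figure D1:**
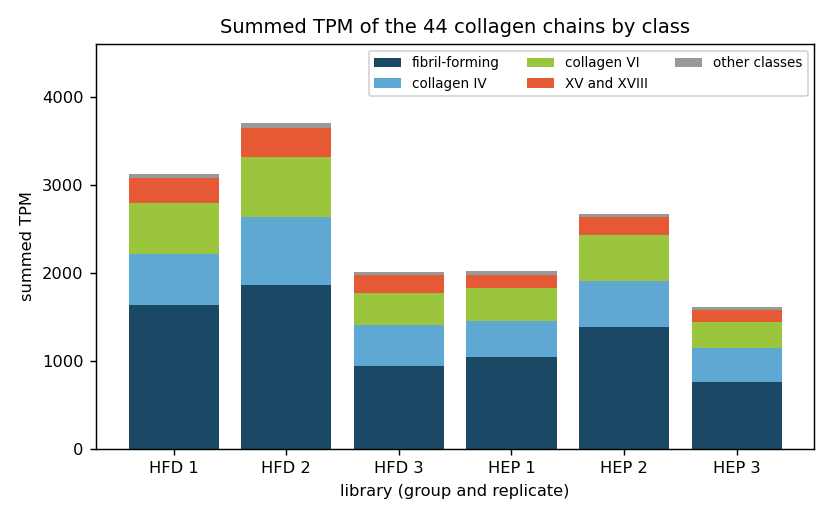
Stacked bars give the summed TPM of the 44 collagen chains in each of the 6 libraries (x axis: group and replicate, y axis: summed TPM), coloured by collagen class. The sums run from 1607 in HEP 3 to 3703 in HFD 2, and the fibril-forming chains are the largest block in every library.

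Fibril-forming chains held 46.5% to 52.3% of the summed collagen TPM in each library, collagen IV 18.5% to 24.1% and collagen VI 17.9% to 19.8%. The multiplexins held 8.84% to 10.2% under HFD, against 7.32% to 8.35% under HEP, and the groups did not overlap in this share. This came from Col15a1, since the share of Col18a1 overlapped, at 1.72% to 1.94% under HFD, against 1.73% to 1.88% under HEP. The fibril-associated chains did not overlap either, by a narrow margin, at 1.025% to 1.110% under HFD, against 1.112% to 1.209% under HEP. The other classes, among them the fibril-associated, short-chain and transmembrane collagens, made up the small remainder.

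In order of mean TPM over the libraries, a level per transcript length, Col3a1 came first, followed by Col4a1, Col4a2, Col1a2, Col15a1, Col6a2, Col6a1, Col6a3, Col1a1, Col5a3, Col5a1, Col5a2 and Col18a1. These 13 chains were the members with a mean of at least 20 TPM. Their ranks among the tested genes ran from 174 for Col3a1 to 2673 for Col18a1. Some neighbours in the order could not be separated: Col4a2 exceeded Col1a2 in 3 of 6 libraries, Col15a1 exceeded Col6a2 in 3 of 6, and Col6a1 exceeded Col6a3 in 4 of 6. Col3a1 exceeded Col4a1, and Col4a1 exceeded Col4a2, in 6 of 6.

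**Figure D2:**
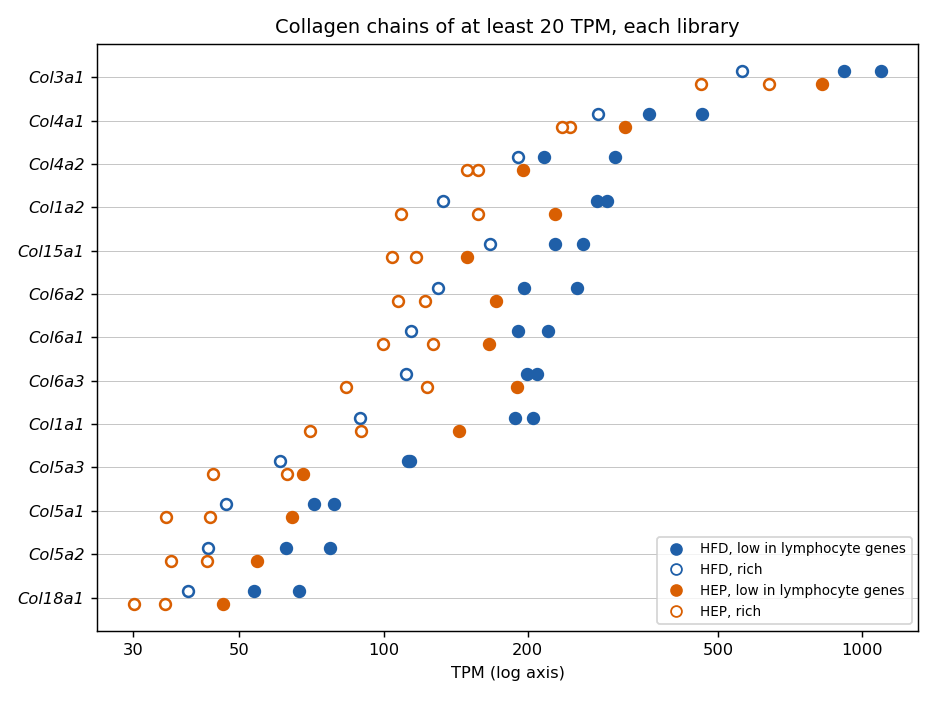
Each point is the TPM of a chain in 1 library (x axis, log scale), for the 13 chains with a mean of at least 20 TPM, ordered by mean level. Filled points are libraries low in lymphocyte genes and open points libraries rich in them; open points sit to the left of filled ones in each chain except Col15a1, where both HFD kinds lie right of all HEP points.

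Only members averaging at least 1 TPM over the libraries entered the test, 22 of the 44. The test was limma on log2(TPM + 1), with Benjamini-Hochberg adjustment over all 15446 genes that met this minimum. At an adjusted p under 0.05, 0 of the 22 tested chains were called, against 0.0% of all tested genes. The smallest adjusted p was 0.879 for a collagen chain and 0.780 over all genes. HEP was on average lower in 19 of the 22 and higher in 3, with a median log2 fold change of -0.42, where the median over all tested genes was 0.07 and 41.4% of them were lower. The 13 abundant chains were all lower on average, with log2 fold changes of -0.81 to -0.39. Over the tested chains the 95% interval reached 0.72 to either side in the median case, so a difference of the median size could not be separated from none. With the mean of lymphocyte genes as a covariate the median was -0.16 (18 of 22 lower), without HEP 3 it was -0.22, without HFD 2 it was -0.25, and without HFD 3 it was -0.66. With mean skeletal muscle gene level as a covariate it was -0.63, and over all 44 members with no minimum level it was -0.10.

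**Figure D3:**
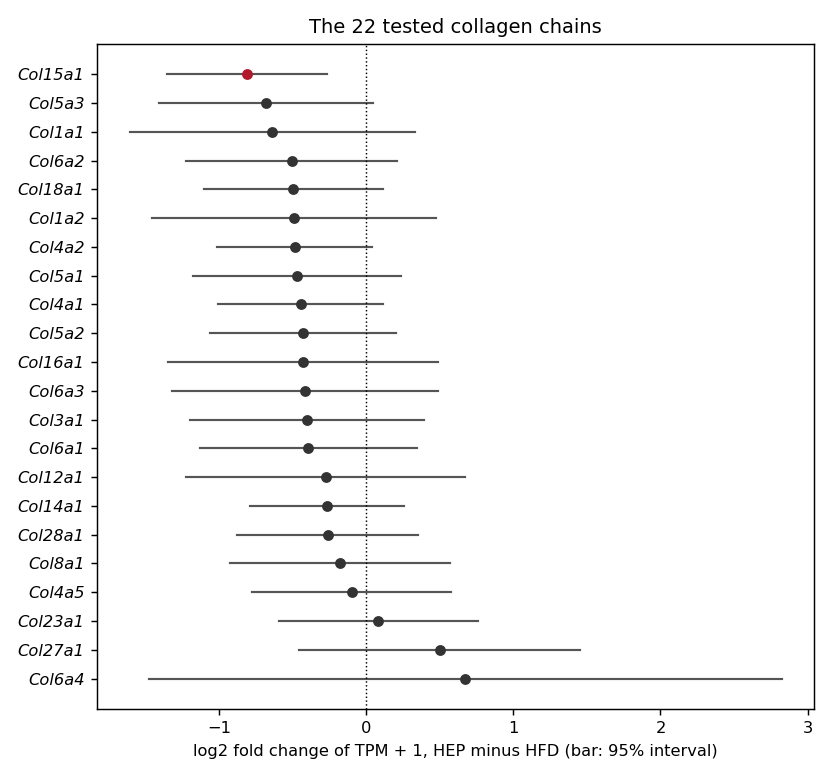
Points give the log2 fold change of TPM + 1, HEP minus HFD (x axis), of the 22 tested collagen chains, and bars the 95% interval of limma. The Col15a1 point, in red, is the single chain whose groups do not overlap, and the other intervals all reach across 0.

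The library split moved with most of these chains. Of the 22 tested chains, 16 were higher in every lymphocyte-low library than in any lymphocyte-rich one, an order found in 13.7% of all tested genes. Among the 13 abundant chains this held for 12, and the exception was Col15a1. HFD 2 gave the highest value of 12 of the 13 and HEP 3 the lowest value of all 13. Within the lymphocyte-low libraries HEP 2 lay below both HFD libraries for 13 of 13 chains. Within the rich ones HEP 3 lay below HFD 3 for 13 of 13, and HEP 1 for 7 of 13. How many of all tested genes had these orders within the split was not counted, so the counts only describe the chains. With the lymphocyte covariate the log2 fold changes of the 13 lay between -0.61 for Col15a1 and -0.051 for Col6a3, with Col3a1 at -0.11. With the skeletal muscle covariate they lay between -0.98 for Col15a1 and -0.60 for Col4a1. The split puts 2 of 3 HFD libraries on 1 side and 2 of 3 HEP libraries on the other, so it and the diet groups cannot be fully told apart.

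Among the fibril-forming chains, Col3a1, which forms the homotrimer of reticular fibrils, was at 914, 1094 and 560 TPM under HFD, against 639, 825 and 460 TPM under HEP. HEP 1 and HEP 2 lay above HFD 3, so the groups overlapped, and the log2 fold change was -0.40 ± 0.33 (SE), or -0.18 without HEP 3, -0.20 without HFD 2 and -0.68 without HFD 3. Col1a2, a chain of type I, the main tensile collagen, was at 279, 293 and 133 TPM under HFD, against 158, 228 and 109 TPM under HEP. Col1a1, its partner in the heterotrimer, was at 188, 205 and 89.3 TPM under HFD, against 89.7, 144 and 70.1 TPM under HEP. For both, HFD 1 and HFD 2 were high, and HFD 3 lay among the HEP values. The log2 fold change of Col1a1 was -0.64 ± 0.40 (SE), with an unadjusted p of 0.161 and a limma adjusted p of 0.879. It was -0.41 without HEP 3, -1.01 without HFD 3 and -0.24 with the lymphocyte covariate.

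Type V collagen nucleates fibrils and limits their diameter. Col5a3 was at 114, 113 and 60.9 TPM under HFD, against 62.8, 67.7 and 43.98 TPM under HEP. HFD 1 and HFD 2 were far above the rest, and HFD 3 lay below HEP 1 and HEP 2. Its log2 fold change of -0.68 ± 0.30 (SE) was the nearest to that of Col15a1, with an unadjusted p of 0.0630 in limma. Col5a1 was at 71.4, 78.9 and 47.0 TPM under HFD, against 43.3, 64.4 and 35.2 TPM under HEP. Col5a2 was at 62.6, 77.2 and 43.1 TPM under HFD, against 42.7, 54.5 and 36.0 TPM under HEP. Both overlapped between the groups through HEP 2, which lay above HFD 3. Col27a1, a fibrillar chain best known from cartilage, was low and had a positive log2 fold change of 0.50 ± 0.40 (SE). It was at 2.55, 1.06 and 1.97 TPM under HFD, against 4.64, 1.50 and 3.35 TPM under HEP, with overlapping groups.

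The basement membrane chains Col4a1 and Col4a2 form the type IV heterotrimer found under most epithelia and endothelia and around adipocytes. Col4a1 was at 359, 462 and 280 TPM under HFD, against 245, 319 and 236 TPM under HEP. Col4a2 was at 216, 305 and 191 TPM under HFD, against 157, 195 and 149 TPM under HEP. In both, HEP 2 was the single HEP library above an HFD library, HFD 3. The log2 fold changes were -0.44 ± 0.23 and -0.48 ± 0.22 (SE), with an unadjusted p of 0.0662 for Col4a2 in limma. Without HFD 2 they were -0.26 and -0.29. The other 4 chains of type IV were at 2.89 TPM or less, and only Col4a5 was tested, at 1.50 to 2.89 TPM.

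Collagen VI assembles from Col6a1, Col6a2 and Col6a3, and a cleaved end of the Col6a3 chain is known as endotrophin. Col6a1 was at 191, 220 and 114 TPM under HFD, against 127, 166 and 99.8 TPM under HEP. Col6a2 was at 196, 253 and 130 TPM under HFD, against 122, 171 and 107 TPM under HEP. Col6a3 was at 200, 209 and 112 TPM under HFD, against 123, 190 and 83.6 TPM under HEP. For all 3 chains HFD 1 and HFD 2 were highest, HEP 2 was next, and HEP 3 was lowest. Their log2 fold changes were -0.39 ± 0.30, -0.50 ± 0.30 and -0.41 ± 0.37 (SE), and each group overlapped the other. With 1 library left out they ranged from -0.67 (without HFD 3) to -0.20 (without HFD 2) for Col6a1, from -0.76 (without HFD 3) to -0.28 (without HFD 2) for Col6a2 and from -0.71 (without HEP 2) to -0.13 (without HEP 3) for Col6a3. Col6a1 was a slightly larger share of the summed collagen TPM in HEP, at 6.28%, 6.22% and 6.21%, than in HFD, at 6.11%, 5.94% and 5.66%.

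Of the 2 multiplexins, which sit at the outer face of basement membranes and carry an endostatin-type end, Col15a1 stood out. It was at 228, 261 and 167 TPM under HFD, against 117, 149 and 104 TPM under HEP. All HEP values lay below all HFD values, lymphocyte-rich HFD 3 included. This was the single tested chain with groups that did not overlap in that direction, 1 of 22, where 3.58% of all tested genes did so, and 0 of 22 lay wholly above, against 1.88% of all genes. The log2 fold change was -0.81 ± 0.23 (SE), with a 95% interval of -1.35 to -0.27. The unadjusted p of 0.0104 in limma was the only one of the 22 under 0.05, a level that 1.13% of all tested genes reached with a lower HEP mean. Without HEP 2, 5 of the 22 chains had an unadjusted p under 0.05 in limma, where 3683 of all 15446 tested genes did so in that fit. Without HFD 3, 10 of the 22 did, and the count over all genes in that fit is not given here. The adjusted p was 0.879, so Col15a1 did not pass the test. Its log2 fold change was -0.70 among the lymphocyte-low libraries, -0.59 among the rich ones and -0.61 with the lymphocyte covariate. Col18a1, the source of endostatin, was at 53.7, 66.5 and 39.1 TPM under HFD, against 35.0, 46.3 and 30.2 TPM under HEP. Its groups overlapped through HEP 2, and its log2 fold change was -0.49 ± 0.25 (SE), or -0.32 without HFD 2. An exon of Col15a1 overlaps the opposite-strand gene Gm12426 in GENCODE M21, and whether counting used strand is not given in the sources used here. Of the 44 members 13 have an exon that overlaps another gene, among them Col3a1, Col5a1 and the pair Col4a1 and Col4a2.

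Markers of cell types known to express these chains differed among the libraries as well. The summed TPM of 8 endothelial markers was 814 to 932 under HFD, against 719 to 735 under HEP, with no overlap, and each of the 8 had a lower HEP mean. The summed TPM of 10 adipocyte markers was 50047, 51952 and 40072 under HFD, against 31830, 51299 and 29619 under HEP, and its highest values were in the lymphocyte-low libraries. Each of the 10 had a lower HEP mean, and the log2 ratio of the sums was -0.33. The 9 fibroblast markers summed to 874, 925 and 645 TPM under HFD, against 756, 988 and 638 TPM under HEP, so these groups overlapped widely. A higher HEP mean was found in 3 of the 9, Thy1, Dpp4 and Ly6a, the last with a log2 fold change of only 0.0053. The others had a lower HEP mean, with log2 fold changes from -0.78 for Pi16 to -0.079 for Pdgfra. The 7 mural cell markers summed to 687, 796 and 546 TPM under HFD, against 484, 704 and 528 TPM under HEP, with overlapping groups and a lower HEP mean in 7 of 7. Their part in the collagen values was not tested.

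Set against the fibroblast markers, the summed collagen TPM was 3.57, 4.003 and 3.12 times the marker sum under HFD, against 2.67, 2.70 and 2.52 times under HEP. All HEP ratios lay below all HFD ratios. This order rests on Ly6a, the largest fibroblast marker in every library. Ly6a was at 483, 483 and 280 TPM under HFD, against 373, 561 and 316 TPM under HEP. With Ly6a left out of the marker sum, HEP 2 would lie above HFD 3 and the groups would overlap. Set against the adipocyte markers, the ratios were 0.0624, 0.0713 and 0.0502 under HFD, against 0.0634, 0.0521 and 0.0543 under HEP, and the groups overlapped. The ratios to the endothelial markers, 3.61, 3.97 and 2.47 under HFD, against 2.81, 3.64 and 2.22 under HEP, overlapped too. So did those to the mural markers, at 4.55, 4.65 and 3.69 under HFD, against 4.16, 3.80 and 3.04 under HEP. These 4 ratios were chosen after the values were seen. The fibroblast markers Thy1 and Dpp4, which T cells are also known to express, were highest in the lymphocyte-rich libraries.

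**Figure D4:**
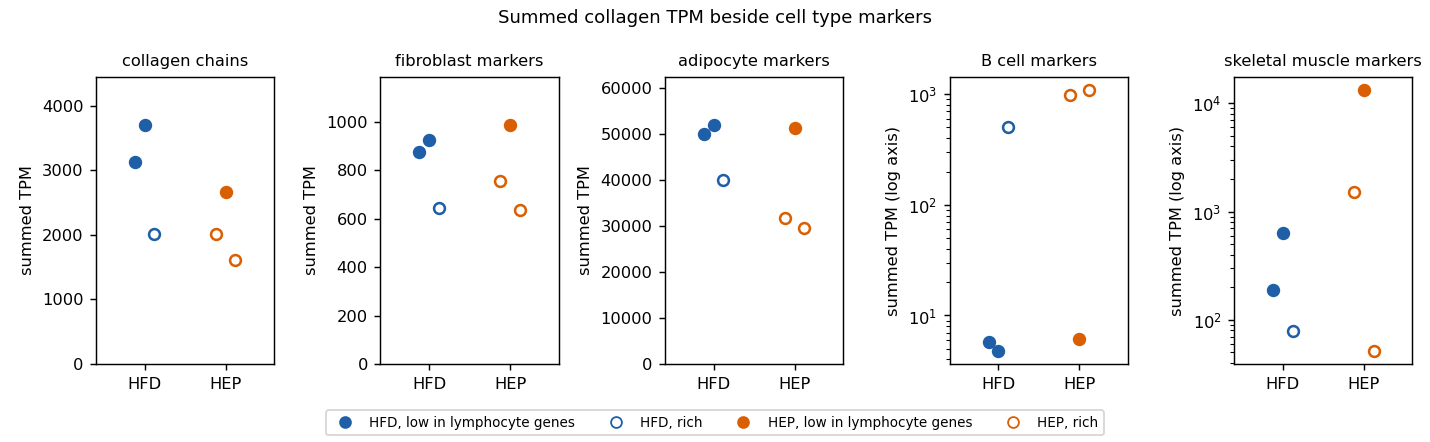
Points are the summed TPM of the 44 collagen chains and of 4 marker lists in each library (y axes, linear for collagen, fibroblast and adipocyte, log for B cell and skeletal muscle), with HFD left and HEP right. Collagen and adipocyte sums are highest in the filled, lymphocyte-low libraries, and HEP 2 has the highest fibroblast sum, 988 TPM, with a collagen sum of 2672.

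Ratios between chains that are built into 1 molecule varied little among the libraries, except for Col8a1 over Col8a2. Col4a1 over Col4a2 was 1.66, 1.52 and 1.46 under HFD, against 1.56, 1.63 and 1.58 under HEP. Col6a1 over Col6a2 lay between 0.870 and 1.04, Col6a3 over Col6a1 between 0.837 and 1.14, and Col5a1 over Col5a2 between 0.977 and 1.18. In these 4 ratios the groups overlapped. Col1a1 over Col1a2 was 0.673, 0.698 and 0.671 under HFD, against 0.569, 0.630 and 0.645 under HEP, and here all HEP values lay below all HFD values. A mean ratio of 0.681 ± 0.015 (SD, n = 3) in HFD stood against 0.615 ± 0.040 (SD, n = 3) in HEP, and 3 samples against 3 cannot give a two-sided exact permutation p under 0.1. The ratio of Col8a1 to Col8a2 ranged from 20 to 176, since Col8a2 was near 0.

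Col15a1 was also low in HEP relative to other chains of the basement membrane zone. Col15a1 over Col4a1 was 0.635, 0.565 and 0.595 under HFD, against 0.478, 0.468 and 0.442 under HEP. Col15a1 over Col18a1 was 4.24, 3.92 and 4.26 under HFD, against 3.34, 3.22 and 3.45 under HEP. In both ratios the groups did not overlap, and the lymphocyte-low and lymphocyte-rich libraries of a group lay side by side. As a share of the summed collagen TPM, Col15a1 was 7.29%, 7.05% and 8.27% under HFD, against 5.80%, 5.58% and 6.47% under HEP. These Col15a1 ratios were chosen after its values were seen, so they describe its pattern and are no test of it.

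**Figure D5:**
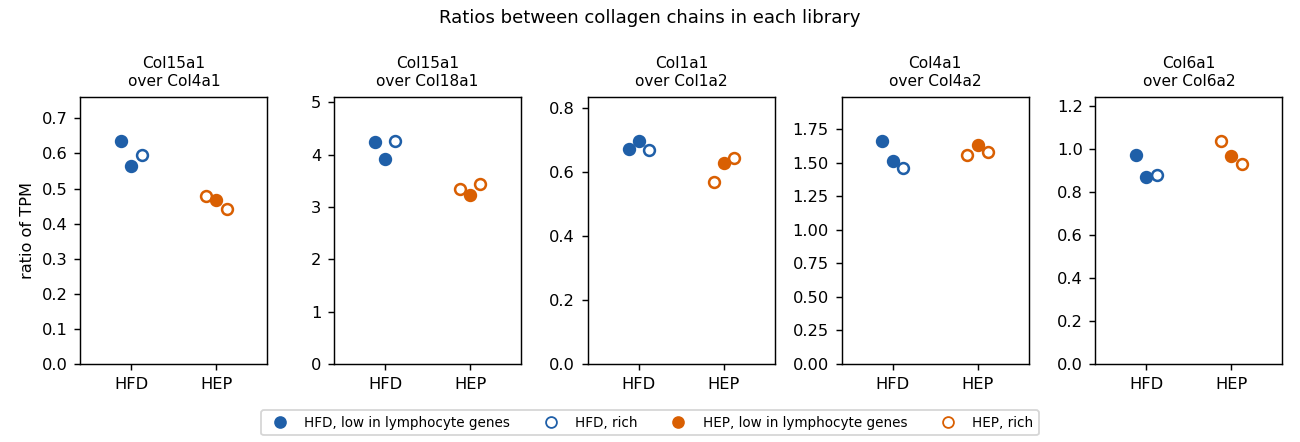
Points are the ratio of the TPM of 2 chains in each library (y axes from 0), with HFD left and HEP right and lymphocyte-low libraries filled. HEP lies below HFD without overlap for Col15a1 over Col4a1, Col15a1 over Col18a1 and Col1a1 over Col1a2, while the ratios within type IV and type VI overlap.

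The promoters of Col3a1, the most abundant chain, and of Col5a3 and Col15a1, the chains with the largest log2 fold changes among the abundant ones, are shown as the 250 bases before the start site in RefSeq, build GRCm38.p6, 5′ to 3′ on the gene's strand. They lie at chr1:45311288-45311537 (plus strand), chr9:20815068-20815317 (minus strand) and chr4:47207762-47208011 (plus strand), and none overlaps an annotated exon. Capitals mark matches on either strand to TATAAA (the TATA box core), CCAAT (the core of the CCAAT box) and GGGCGG (the core bound by Sp1), and no 2 matches overlap in these windows.
Col3a1: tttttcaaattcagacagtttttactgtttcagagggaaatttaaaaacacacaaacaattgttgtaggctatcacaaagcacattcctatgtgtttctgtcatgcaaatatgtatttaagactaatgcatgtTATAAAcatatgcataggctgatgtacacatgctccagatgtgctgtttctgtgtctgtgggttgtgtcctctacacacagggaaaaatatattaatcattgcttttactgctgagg
Col5a3: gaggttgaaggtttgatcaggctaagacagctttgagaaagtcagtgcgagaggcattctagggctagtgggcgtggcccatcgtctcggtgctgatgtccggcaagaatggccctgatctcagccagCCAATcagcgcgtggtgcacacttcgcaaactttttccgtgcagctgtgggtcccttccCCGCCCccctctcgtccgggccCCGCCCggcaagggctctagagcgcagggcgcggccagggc
Col15a1: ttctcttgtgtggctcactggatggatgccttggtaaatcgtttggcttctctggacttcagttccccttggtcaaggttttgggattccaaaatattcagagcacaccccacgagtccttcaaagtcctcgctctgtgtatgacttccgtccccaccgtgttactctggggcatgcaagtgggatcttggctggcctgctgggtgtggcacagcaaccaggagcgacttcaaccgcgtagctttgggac

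Col3a1 held 1 TATAAA, Col5a3 held 1 CCAAT and 2 GGGCGG, and Col15a1 held no match to any of them. A window was found for 35 members, 38 windows in all, and for 11 of the 13 abundant chains. Among the 38 windows, 5 held TATAAA, 13 held CCAAT and 22 held GGGCGG, where the shares over all 32851 RefSeq windows of this length were 12.4%, 33.8% and 32.7%. The start sites of Col4a1 and Col4a2 lie 21 bases apart on opposite strands, so that the annotated first bases of the transcripts overlap, and the pair is known for a shared promoter. A match describes the letters in the window and nothing more.

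The 9 tested chains with means between 1 and 20 TPM came from several classes. Col16a1, a fibril-associated chain, was the highest of them, at 14.1, 23.5 and 10.1 TPM under HFD, against 11.1, 15.7 and 7.34 TPM under HEP. Col14a1 and Col12a1, which bind fibril surfaces, ranged over 5.60 to 9.31 and 2.66 to 7.81 TPM. Col8a1, a short-chain collagen of vessel walls, ranged over 2.97 to 6.88 TPM, and its log2 fold change of -0.18 ± 0.31 (SE) turned to 0.12 without HFD 2. Col28a1, a beaded-filament-like chain, ranged over 3.78 to 7.84 TPM, and Col23a1, a transmembrane collagen, over 1.02 to 2.12 TPM. All 9 overlapped between the groups.

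A few low chains were highest in the lymphocyte-rich libraries instead. Col6a4 was at 0, 0 and 4.10 TPM under HFD, against 3.71, 0 and 3.41 TPM under HEP, listed at 0 in exactly the 3 lymphocyte-low libraries. It was the 1 tested chain with all rich values above all low ones, an order found in 30.5% of all tested genes. Col6a5, its neighbour in the genome, was at 0.11, 0.15 and 0.82 TPM under HFD, against 2.34, 0.21 and 1.75 TPM under HEP. Col11a2 and Col9a3, chains known from cartilage, had the same order among the untested members, and Col8a2 the opposite order. Exons of Col6a4 overlap the opposite-strand genes Gm36993 and Gm47575, so its reads cannot be assigned with certainty where strand was not used.

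The 22 untested members lay between 0 and 2.34 TPM. The cartilage chain Col2a1, the growth-plate chain Col10a1, the epidermal chains Col7a1 and Col17a1 and the neuronal chain Col25a1 were among them. The 6 cartilage and bone markers summed to 0.28 to 0.80 TPM, with Ibsp and Bglap listed at 0 in every library, and 5 keratinocyte markers summed to 3.42 to 6.26 TPM, most of it Krt10. Over all members, 39 were above 0 in every library and 5 were listed at 0 in at least 1. Col13a1, a transmembrane collagen with a mean just under the minimum for testing, was the 1 untested member whose groups did not overlap. It was at 0.88, 0.71 and 0.94 TPM under HFD, against 1.09, 0.98 and 1.39 TPM under HEP, all of them higher in HEP. Among all 15153 untested genes with a TPM above 0 in at least 1 library, 2.22% had that order and 1.51% the reverse order, so 1 of 22 members is near that background.

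The machinery that makes and finishes collagen was followed through 57 genes in 4 lists, of which 49 were tested. In limma 0 of the 49 were called and 0 had an unadjusted p under 0.05, against 1.81% of all tested genes. Without HEP 2, 9 of the 49 had an unadjusted p under 0.05, where 3683 of all 15446 tested genes did so in that fit. With the skeletal muscle covariate 19 of the 49 did, where 1586 of all tested genes did. In either fit 0 of the 49 were called. HEP was on average lower in 41 of them and higher in 8, with a median log2 fold change of -0.23. Of 19 tested genes for folding and export 15 were lower, of 9 for processing and crosslinking 9 were lower, of 12 fibril partners 10 were lower, and of 9 receptors 7 were lower. The list medians were -0.20, -0.34, -0.24 and -0.19.

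Serpinh1, the collagen chaperone HSP47 of the endoplasmic reticulum, was at 459, 508 and 306 TPM under HFD, against 239, 389 and 216 TPM under HEP. HEP 2 lay above HFD 3, as in the 6 abundant fibrillar chains, and the log2 fold change was -0.61 ± 0.30 (SE), or -0.31 with the lymphocyte covariate. P4ha1, a subunit of prolyl 4-hydroxylase, was at 18.3, 23.3 and 17.1 TPM under HFD, against 19.6, 23.4 and 15.1 TPM under HEP, with values that interleaved. Lox, which crosslinks collagen and elastin, was at 93.1, 99.6 and 78.9 TPM under HFD, against 58.7, 113 and 54.4 TPM under HEP, highest in HEP 2. Pcolce, which enhances removal of the procollagen C-propeptide, was at 102, 107 and 60.3 TPM under HFD, against 65.5, 106 and 44.2 TPM under HEP. In Lox, Pcolce and P4ha1 HEP 2 was above HFD 1, whereas it was below HFD 1 in 13 of the 13 abundant chains. The share of all tested genes with either order was not counted.

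P4ha2, another prolyl 4-hydroxylase subunit, was at 19.5, 23.7 and 14.7 TPM under HFD, against 12.3, 17.7 and 7.49 TPM under HEP. Loxl1, an elastin and collagen crosslinker, was at 16.8, 22.2 and 16.7 TPM under HFD, against 9.81, 21.1 and 6.88 TPM under HEP. Adamts2, which removes the procollagen N-propeptide, was at 21.7, 27.7 and 16.1 TPM under HFD, against 14.5, 19.8 and 10.8 TPM under HEP. In these 3 genes HFD 2 was highest and HEP 3 lowest, as in 12 of the 13 abundant chains, and HEP 2 lay above HFD 3.

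Among fibril partners, Postn, the matricellular protein periostin, was at 171, 157 and 166 TPM under HFD, against 140, 126 and 155 TPM under HEP. Its groups did not overlap, with HEP 3 just below HFD 2. It was the 1 of the 49 tested pathway genes in that order, a share below the 3.58% of all tested genes. Dcn, the fibril-binding proteoglycan decorin, was at 496, 747 and 487 TPM under HFD, against 498, 645 and 365 TPM under HEP. Among receptors, Ddr2, a receptor kinase for fibrillar collagen, was at 22.6, 22.9 and 13.7 TPM under HFD, against 16.8, 15.2 and 16.7 TPM under HEP. Dcn and Ddr2 overlapped between the groups, and Lair1, an inhibitory collagen receptor of leukocytes, was higher on average in HEP, at 1.28, 3.92 and 6.83 TPM under HFD, against 9.40, 2.57 and 7.87 TPM under HEP, with its 3 highest values in the lymphocyte-rich libraries.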

How the data were processed

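RNA sequencing measured 6 libraries, grouped by their titles. TRIzol RNA went into a TruSeq kit, per the labels' protocols. The deposited table holds TPM per gene, made by the authors; DESeq2, StringTie, RSEM, HISAT2 and fastp stand in the submitters' processing notes with neither version nor role, and the genome build is not given in the sources used here. TPM keeps no depth, so depth is unknown, no counting interval was given, and 0 is reported as listed at 0. TPM also divides by the library's total, so abundant transcripts of other cells lower every other value.

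Values were transformed to log2(TPM + 1). The 15446 of 57180 genes averaging 1 TPM or more were compared two-sided in limma 3.58.1 under R 4.3.3, with a trended variance prior, with Benjamini-Hochberg adjustment over all of them and a threshold of 0.05. Fold changes on this scale understate those of low genes. The fit was tested on simulated data with independent noise for each gene. That simulation had no library split and no transcripts of other tissues, so it does not cover them. Sums, ratios and sequence counts were computed in Python 3.11.15 with pandas 2.3.3. All members and lists were chosen with earlier results of these data known. Named members were those with a mean of at least 20 TPM, those with the 6 smallest p, those tested without overlap, and the chains of the ratios. Named pathway genes were 6 fixed ones and some of those with the smallest p in each list. Crtap and Loxl2 had the smallest unadjusted limma p of the folding and processing lists, 0.0858 and 0.0855, and are not described above. Their log2 fold changes were -0.36 and -0.48. Glycine runs and overlaps came from GENCODE M21 and promoters from RefSeq, both on GRCm38. Alternatives were other pseudocounts, filters, scalings, variance priors and covariates, a replicate block and each library left out; those within the lymphocyte split and per marker sum were added after seeing the data.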

Additional observations from a re-analysis of the deposited data

How the results depend on the processing

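No collagen chain and no pathway gene was called under any alternative run; the pathway genes were not recounted within the split. Over all genes, leaving out 1 library gave 0 to 1 called genes, the 1 without HEP 2. The median of the tested chains, -0.42, stayed below 0 throughout, from -0.66 to -0.22 with 1 library left out, and was -0.46 with median-of-ratios scaling, -0.45 with quantile normalization and -0.43 with a pseudocount of 0.1. The log2 ratio of summed collagen TPM ranged from -0.70 to -0.29 with 1 library left out. Whether the shared replicate numbers pair the samples could not be decided. Same-numbered libraries correlated at -0.35, 0.37 and 0.65 in their deviations from the group mean. Whatever their numbers, libraries on the same side of the lymphocyte split correlated positively and those on opposite sides negatively, which could hide a pairing. With a replicate block the median was -0.42 and 0 chains were called, while 12 chains in place of 1 had an unadjusted p under 0.05. With the skeletal muscle covariate 14 did, and of the pathway genes 8 did with the block and 19 with that covariate in place of 0. Over all genes these counts were 279 as reported, 576 with the block, 1586 with the covariate and 3683 without HEP 2. The log2 fold change of Col15a1 ranged from -0.99 to -0.67 with 1 library left out, and its limma adjusted p from 0.207 to 1.00 over all its alternatives. Signs turned for P4ha1 (0.12 with the lymphocyte covariate, 0.10 without HFD 2, 0.13 without HEP 3, 0.17 within the lymphocyte-low and 0.0075 within the rich libraries), Col8a1 (0.12 without HFD 2, 0.029 within the rich), Dcn (0.0037 without HEP 3, 0.082 within the low), Loxl1 (0.12), Lox (0.23) and Pcolce (0.011) within the low, and Ddr2 (0.27) within the rich (with 1 library left out, P4ha1 ranged from -0.16 to 0.13, Col8a1 from -0.37 to 0.12 and Dcn from -0.41 to 0.0037); the cause was not tested. Within either side of the split 1 arm holds a single library, whose spread is taken to equal that of the other arm. Depth is unknown, so low chains carry a counting error that cannot be given.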
